A study of Homo sapiens with 5 samples.

Results

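The integrated stress response is the programme by which cells under amino acid shortage, unfolded protein, double-stranded RNA or lack of haem lower general protein synthesis and switch on a small set of transcription factors and their targets. The 10 genes described here are regulators of this response that were chosen by gene symbol, and they were selected on values measured in these same libraries. They are ATF4, DDIT3, ATF3, CEBPB and NUPR1, which act on transcription, TRIB3 and PPP1R15A, which feed back on the response, and SESN2, DDIT4 and CHAC1, which act on growth signalling and redox state. The set makes up 10 of the 19716 genes with a read in at least 1 of the 5 libraries. Each of the 10 was above 1 TPM (reads per length of the gene, on a scale with the same total for each library) in every library, so no member was lost to the filter of 1 TPM in either library of a comparison. Their levels and folds are given as a description without p-values.

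All 5 libraries came from HEK293T, a line from human embryonic kidney with the SV40 large T antigen, at 48 h after transfection with 1 ug of plasmid DNA using X-tremeGENE 9. In 4 groups the cells received 5 sgRNAs for the uPA promoter (PLAU is the gene symbol) and a plasmid for 1 fusion of dCas9, a Cas9 without nuclease activity, with blue fluorescent protein (BFP) and a partner. The partner was the catalytic domain of DNMT1 (group dCas9-BFP-DNMT1), of DNMT3A (dCas9-BFP-DNMT3A) or of DNMT3B (dCas9-BFP-DNMT3B), or EGFP, which is no methyltransferase (dCas9-BFP-EGFP). The fifth group, pUC19, received a cloning plasmid without dCas9, BFP or sgRNA, and served as the control of the study. Against this control, the study reported higher uPA promoter methylation with the DNMT3A and DNMT3B fusions, but not with those of DNMT1 or EGFP. Transfection was shared by all 5 groups, and the fusions were expressed from plasmids with a phosphoglycerate kinase promoter. The labels state for every group that RNA was taken from BFP-positive cells, although pUC19 encodes no BFP, so the plasmid cargo and the sort cannot be told apart in any comparison with pUC19. Each group had 1 library. No difference from pUC19 therefore has a replicate check, and the 95% intervals given below cover counting error of the reads only.

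The libraries held between about 26250000 and 36140000 reads assigned to genes, with the largest total in pUC19. The rows of DNMT1, DNMT3A and DNMT3B took 3.53%, 3.19% and 5.98% of the reads in the library of the matching fusion, where plasmid and endogenous transcripts are counted together. PLAU, the targeted gene, had 106 reads in pUC19 and between 1 and 6 in each fusion library. The HEK293T markers VIM, KRT8, KRT18, NEFM and PAX2 were present in every library, with a summed level between 677 and 858 TPM. Among them NEFM was at 193 TPM in pUC19 and between 34.3 and 60.2 in the fusions, and its part in the results was not tested. Of markers that the line should lack, KRT5 was at 0 in 4 libraries, DCN in 2 and ALB in 1. PTPRC and PECAM1 had reads in every library, at 0.0723 to 0.219 and 0.559 to 0.882 TPM. The sum of ALB, PTPRC, KRT5, PECAM1 and DCN stayed between 0.712 and 1.71 TPM.

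As background, the response starts when 1 of several kinases phosphorylates the translation initiation factor eIF2, which blocks its exchange factor eIF2B and slows initiation on most mRNAs. The mRNA of ATF4 escapes, because short reading frames upstream of its coding region let ribosomes reach the ATF4 start codon only when eIF2 is limiting. ATF4 protein, often together with DDIT3 (CHOP), then binds response elements in genes for amino acid supply, tRNA charging, redox defence and cell death, and PPP1R15A (GADD34) returns a phosphatase to eIF2 to end the block. Poly(A) RNA levels, as measured here, do not show the translation of ATF4 or the phosphorylation of eIF2.

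ATF4, the central transcription factor of the response, was the most abundant member. Its level was 1251 TPM with the DNMT1 fusion, 1511 with DNMT3A, 1474 with DNMT3B, 1635 with EGFP and 1210.3 in pUC19, above 99.3% of the genes of at least 1 TPM in that control. The 5 levels lay close together, with pUC19 lowest and the EGFP fusion highest. Against pUC19 the folds were 1.03 (95% interval 1.02 to 1.05), 1.25 (1.23 to 1.27), 1.22 (1.20 to 1.24) and 1.35 (1.33 to 1.37) in the same order. ATF4 has NCBI gene number 468 and spans 39915700 to 39918688 of chromosome 22 (plus strand) in GRCh37, the build of the files. Its canonical transcript has a 5′ UTR of 282 bases with 3 ATG triplets upstream of the coding start. Upstream ATGs were found in the canonical transcripts of 5 of the 10 members, with 3 in DDIT3, 2 in TRIB3, 2 in PPP1R15A and 1 in SESN2, and in 41.6% of the 12326 expressed genes with such a transcript. For DDIT4 no 5′ UTR value was obtained, so it counts neither as with nor as without upstream ATGs. The RNA came from bulk samples, in which the share of responding cells and the RNA per cell cannot be told apart.

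**Figure D1:**
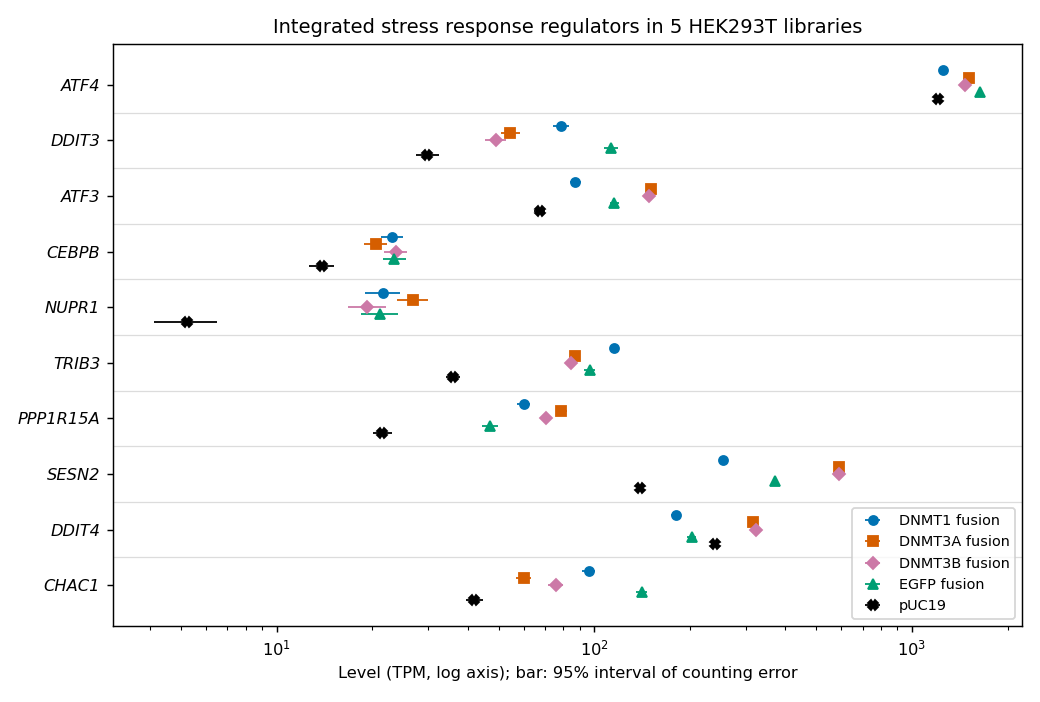
Level of each member in TPM on a log axis in the 5 libraries, 1 marker per library with the 95% interval of counting error. The pUC19 library is lowest for every member except DDIT4, ATF4 is highest and tightly grouped, and NUPR1 has the widest range.

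DDIT3 encodes CHOP, a bZIP factor that pairs with C/EBP proteins and takes part in stress-induced death. It was at 78.7 TPM with the DNMT1 fusion, 54.4 with DNMT3A, 49.1 with DNMT3B, 113 with EGFP and 29.9 in pUC19. The DNMT1 and EGFP fusion libraries stood apart on the higher side, while DNMT3A and DNMT3B lay between them and the control with overlapping intervals. The folds over pUC19 were 2.64 (2.38 to 2.92) with DNMT1 and 3.79 (3.44 to 4.18) with EGFP, against 1.82 (1.64 to 2.03) with DNMT3A and 1.64 (1.47 to 1.84) with DNMT3B. DDIT3 (NCBI gene 1649) lies on the minus strand of chromosome 12 at 57910371 to 57915520.

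ATF3 is a stress-induced bZIP factor that ATF4 and other pathways switch on. Its level was 87.2 TPM with the DNMT1 fusion, 151 with DNMT3A, 149 with DNMT3B, 116 with EGFP and 67.4 in pUC19. The DNMT3A and DNMT3B libraries were highest and did not differ beyond counting error. Their folds over pUC19 were 2.24 (2.13 to 2.35) and 2.20 (2.10 to 2.31), with 1.72 (1.63 to 1.81) for EGFP and 1.29 (1.23 to 1.37) for DNMT1. ATF3 (NCBI gene 467) spans 212738676 to 212794119 of chromosome 1, plus strand.

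CEBPB, a C/EBP factor that dimerises with ATF4 and CHOP, was at 23.1, 20.5, 23.7 and 23.5 TPM with the DNMT1, DNMT3A, DNMT3B and EGFP fusions and at 13.9 TPM in pUC19. The 4 fusion libraries were alike, each overlapping its neighbour in counting error, and all were above the control. The folds lay between 1.48 (1.30 to 1.67) with DNMT3A and 1.71 (1.51 to 1.94) with DNMT3B. CEBPB (NCBI gene 1051; chromosome 20, 48807367 to 48809205, plus strand) had the highest GC content among the members, 66.2%, above that of 97.6% of the expressed genes with a value. The part of its transcript covered by reads, as deposited, was 63.0% with EGFP and 63.4% in pUC19, and between 81.4% and 84.3% in the libraries of the 3 methyltransferase fusions. Once each library's trend with GC content and length was removed, the log2 ratio of CEBPB was 0.48, 0.21, 0.48 and 0.83 for DNMT1, DNMT3A, DNMT3B and EGFP, against 0.73, 0.56, 0.77 and 0.76 before. How much GC content contributed to the level was not tested.

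NUPR1, a small chromatin-associated stress protein, had the largest mean log2 ratio to the control, 2.06 over the 4 fusions. It was at 21.6 TPM with the DNMT1 fusion, 26.9 with DNMT3A, 19.3 with DNMT3B, 21.1 with EGFP and 5.21 in pUC19. All 4 fusion libraries lay far above pUC19 and close to each other, with neighbouring intervals that overlapped. These levels rest on the fewest reads of any member, 251, 321, 204, 224 and 78 in the same order. The folds were 4.14 (3.20 to 5.41), 5.15 (4.01 to 6.68), 3.70 (2.84 to 4.87) and 4.06 (3.12 to 5.32). NUPR1 (NCBI gene 26471) lies on the minus strand of chromosome 16 at 28544029 to 28550329.

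TRIB3 is a pseudokinase that ATF4 and CHOP induce and that in turn restrains both. Its level was 116 TPM with the DNMT1 fusion, 86.9 with DNMT3A, 84.5 with DNMT3B, 96.8 with EGFP and 36.0 in pUC19. Every fusion library was more than 2-fold above the control. The largest fold was 3.21 (3.02 to 3.42) with DNMT1, followed by 2.69 (2.52 to 2.87) with EGFP, 2.42 (2.27 to 2.58) with DNMT3A and 2.35 (2.20 to 2.51) with DNMT3B. TRIB3 (NCBI gene 57761) is found on chromosome 20 at 343479 to 378203 of the plus strand.

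PPP1R15A, the stress-induced subunit that directs protein phosphatase 1 to eIF2, was at 60.0 TPM with the DNMT1 fusion, 78.7 with DNMT3A, 70.5 with DNMT3B, 47.0 with EGFP and 21.5 in pUC19. No neighbouring libraries in this order overlapped in counting error. Folds over the control ranged from 2.19 (2.001 to 2.39) with EGFP to 3.66 (3.38 to 3.96) with DNMT3A, with 2.79 (2.57 to 3.03) for DNMT1 and 3.28 (3.02 to 3.56) for DNMT3B. PPP1R15A (NCBI gene 23645) occupies 49375469 to 49379316 of chromosome 19, plus strand.

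SESN2, a stress-induced sestrin that lowers mTORC1 signalling and senses leucine, was the second most abundant member in the fusion libraries. It was at 254 TPM with the DNMT1 fusion, 589.3 with DNMT3A, 588.7 with DNMT3B, 369.5 with EGFP and 139.8 in pUC19. The DNMT3A and DNMT3B libraries were nearly equal and the highest, and their intervals overlapped, with EGFP, DNMT1 and pUC19 below them in that order. Folds over pUC19 were 4.22 (4.11 to 4.32) with DNMT3A, 4.21 (4.11 to 4.32) with DNMT3B, 2.64 (2.57 to 2.72) with EGFP and 1.82 (1.77 to 1.87) with DNMT1. SESN2 (NCBI gene 83667) lies on chromosome 1 at 28586029 to 28609002 of the plus strand.

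DDIT4 encodes REDD1, an inhibitor of mTORC1 that is also induced by hypoxia and glucocorticoids, and it was the only member that lay below pUC19 in any library. Its level was 180.4 TPM with the DNMT1 fusion, 317 with DNMT3A, 323 with DNMT3B, 203 with EGFP and 239 in pUC19. The control fell between the fusions, with DNMT3A and DNMT3B above it and DNMT1 and EGFP below. The folds were 0.754 (0.724 to 0.784) with DNMT1, 0.846 (0.814 to 0.880) with EGFP, 1.32 (1.28 to 1.37) with DNMT3A and 1.35 (1.31 to 1.40) with DNMT3B. DDIT4 (NCBI gene 54541) spans 74033678 to 74035794 of chromosome 10, plus strand.

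CHAC1, a glutathione-degrading enzyme induced by ATF4 and CHOP, was at 96.1 TPM with the DNMT1 fusion, 60.0 with DNMT3A, 75.8 with DNMT3B, 141 with EGFP and 42.0 in pUC19. The 5 libraries were separated beyond counting error, with EGFP highest. The fold was 3.36 (3.13 to 3.62) with EGFP and 2.29 (2.12 to 2.47) with DNMT1, and below 2 with DNMT3B (1.81, interval 1.67 to 1.96) and DNMT3A (1.43, interval 1.31 to 1.55). CHAC1 (NCBI gene 79094) lies on chromosome 15 at 41245160 to 41248710 of the plus strand.

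For ATF3, CHAC1 and PPP1R15A the promoter window that held a full-length element tied to ATF and C/EBP factors is shown. RefSeq gave 15 promoter windows of 300 bases for 9 of the 10 members, and each window was found exactly once in GRCh37. The 250 bases before the start site are given 5′ to 3′ on the plus strand of GRCh37, with the element in capitals. For ATF3 they span chr1:212738499-212738748, for CHAC1 chr15:41245419-41245668 and for PPP1R15A chr19:49375428-49375677.
ATF3: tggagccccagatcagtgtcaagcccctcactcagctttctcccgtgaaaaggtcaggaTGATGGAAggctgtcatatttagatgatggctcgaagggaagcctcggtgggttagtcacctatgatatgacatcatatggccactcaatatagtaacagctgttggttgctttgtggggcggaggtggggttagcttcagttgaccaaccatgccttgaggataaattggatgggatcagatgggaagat
CHAC1: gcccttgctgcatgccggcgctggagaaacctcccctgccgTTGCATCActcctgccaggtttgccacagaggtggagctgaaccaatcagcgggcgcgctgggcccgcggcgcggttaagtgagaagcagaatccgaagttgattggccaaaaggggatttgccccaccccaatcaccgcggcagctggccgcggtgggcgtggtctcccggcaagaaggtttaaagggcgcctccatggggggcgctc
PPP1R15A: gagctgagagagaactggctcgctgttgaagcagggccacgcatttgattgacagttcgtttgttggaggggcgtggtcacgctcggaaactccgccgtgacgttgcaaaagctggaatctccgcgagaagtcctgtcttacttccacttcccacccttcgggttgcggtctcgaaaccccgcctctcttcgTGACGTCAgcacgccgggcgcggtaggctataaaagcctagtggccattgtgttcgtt

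The capitals in ATF3 and CHAC1 mark the composite C/EBP-ATF response element, searched as TGATGNAA on both strands, which begins 191 bases before the start site in ATF3 and 209 bases before it in CHAC1, there on the minus strand. In PPP1R15A they mark the palindromic cAMP response element TGACGTCA, which begins 58 bases before the start site. TGATGNAA was present in 3.62% of all 35116 RefSeq promoter windows and in 2.02% of those of genes of at least 1 TPM, and TGACGTCA in 1.85% and 2.76%. The shorter core TGACG, which lies within TGACGTCA, occurred in 4 of the members' 15 windows, against 24.6% of all windows and 31.3% of those of expressed genes. The ER stress element core CCACG occurred in 8 of the 15, against 38.1% and 47.4%. Windows of the same gene can overlap almost fully, as for ATF4 and TRIB3. By gene, TGACG was found in 3 and CCACG in 5 of the 9 members with a window. A match of letters is a description of the window and not a binding site. A second window of ATF3, at chr1:212788110-212788409, held none of the elements searched. The windows of the other members did not hold the longer elements, and NUPR1 had no window.

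Taking the members together, 38 of the 40 ratios to pUC19 were above 1 and 21 were at least 2-fold. Of all genes of at least 1 TPM in either library, 37.3%, 48.1%, 48.5% and 49.6% were above pUC19 with DNMT1, DNMT3A, DNMT3B and EGFP. Counts of members past 2-fold are read against all genes of at least 1 TPM in either library, using the ratio of TPM + 0.1, which understates the change of genes of low level. With the DNMT1 fusion 5 of 10 members were at least 2-fold higher, where 2.54% of all 14352 genes were, and no member was 2-fold lower, where 5.86% of genes were. The members past 2-fold there were DDIT3, TRIB3, CHAC1, NUPR1 and PPP1R15A. With DNMT3A the count was 5 of 10, against 6.24% of genes higher and 7.29% lower, and with DNMT3B 5 of 10, against 6.62% higher and 6.48% lower. In both the members were ATF3, TRIB3, NUPR1, SESN2 and PPP1R15A. The EGFP fusion, without a methyltransferase, had 6 of 10 members past 2-fold, namely DDIT3, TRIB3, CHAC1, NUPR1, SESN2 and PPP1R15A, against 4.35% of genes higher and 4.84% lower.

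The members had median log2 ratios of 1.03, 1.01, 0.99 and 1.26 for DNMT1, DNMT3A, DNMT3B and EGFP. Over all genes tested the medians were -0.14, -0.03, -0.02 and -0.0045. The 4 comparisons share the pUC19 library, so a deviation of that library would enter all of them. TRIB3, NUPR1 and PPP1R15A were at least 2-fold higher in all 4 fusion libraries. The share of all genes that were so in all 4 was not computed, so this is not read as a result about the members. Above pUC19 in all 4 fusion libraries were 9 of the 10 members and 23.3% of the 14776 genes of at least 1 TPM in any library. Nearest to the 2-fold line, on TPM + 0.1, were PPP1R15A with EGFP at 2.18 above it and DDIT3 with DNMT3A at 1.82 below it. In the DNMT1 library the shift of all genes by -0.14 came with uneven sides of the 2-fold line, where 30.3% of the genes past it were higher, against 44.5% with TMM scaling and 45.9% with median-ratio size factors. Under these scalings the members' counts were 5 and 6 of 10, with SESN2 added by the second at a log2 ratio of 1.00, and DDIT4 lay at -0.28 and -0.26 on the log2 scale.

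The members separated into 3 sets when the fusions were compared with each other. For 7 members the DNMT3A and DNMT3B libraries did not overlap with the DNMT1 and EGFP libraries. ATF3, SESN2, DDIT4 and PPP1R15A were higher with DNMT3A and DNMT3B, by 1.49, 1.92, 1.67 and 1.40-fold between the mean log2 levels, and 34.1% of the 14573 genes tested in the fusions had this order. DDIT3, TRIB3 and CHAC1 were lower, at 0.548, 0.810 and 0.579 of the level with DNMT1 and EGFP, an order seen in 23.6% of genes. ATF4, NUPR1 and CEBPB overlapped between the pairs, at 1.04, 1.07 and 0.947. With so many genes in either order, the count of 7 of 10 is not read as a result about the members. Removing the trend with GC content and length left the same 4 genes above and the same 3 below. So did TMM scaling, median-ratio size factors, thinning and leaving out the rows of the methyltransferases. The pseudocount and the minimum level cannot change this order. The ranges among the 4 fusions were widest for CHAC1, SESN2 and DDIT3, at 1.23, 1.21 and 1.20 on the log2 scale, and narrowest for CEBPB at 0.21.

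The other genes of the pathway were described from 8 lists holding 93 genes besides the members. These lists, like the members, were chosen with earlier results of these data known. The apparatus that senses stress and acts on eIF2 was not 2-fold higher in any fusion library. Among 9 kinases and sensors the median log2 ratios were -0.09, -0.41, -0.32 and 0.02 in the order DNMT1, DNMT3A, DNMT3B and EGFP. EIF2AK4, the amino acid sensing kinase GCN2, was at 31.0, 26.7, 26.6 and 25.8 TPM with the fusions and at 43.2 in pUC19, and EIF2AK2, the double-stranded RNA sensor PKR, at 25.9, 26.1, 30.0 and 27.2 against 26.8. EIF2B3, a subunit of eIF2B, lay farthest from the control in mean log2 ratio among 8 subunits of eIF2 and eIF2B, with 27.1, 36.5, 33.03 and 25.1 TPM against 59.5. PPP1R15B, the constitutive counterpart of PPP1R15A, was at 30.0, 34.8, 36.6 and 38.2 TPM with the fusions and 47.9 in pUC19, the other direction from PPP1R15A.

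Among 15 bZIP partners of ATF4 and CHOP, 2, 3, 4 and 2 were at least 2-fold higher with DNMT1, DNMT3A, DNMT3B and EGFP. CEBPD, counted with DNMT1 and DNMT3B, had only 19 and 23 reads there and 10 in pUC19. Its folds were 2.45 (1.08 to 5.89) and 3.26 (1.49 to 7.66). JDP2, a repressor related to ATF3, was at 13.4, 13.8, 17.4 and 17.2 TPM with the fusions and at 6.15 in pUC19. ATF7 was at 22.2, 32.2, 33.9 and 29.3 against 14.9 TPM, and CEBPG, a dimer partner of ATF4, at 71.5, 77.2, 77.8 and 116 against 54.6. The 6 family neighbours gave no gene that was 2-fold higher, and TRIB1, a relative of TRIB3, was at 7.0, 10.9, 8.86 and 7.17 TPM against 21.4.

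The targets of ATF4 and CHOP were split by function. Of 21 genes for amino acid metabolism and import, 1, 1, 1 and 6 were at least 2-fold higher with DNMT1, DNMT3A, DNMT3B and EGFP, and the medians were 0.18, -0.05, 0.18 and 0.76. SLC1A4, a carrier of neutral amino acids, was the gene past 2-fold in every fusion library, at 38.1, 31.9, 38.4 and 66.9 TPM against 15.8 in pUC19. ASNS, which makes asparagine and is a classical ATF4 target, was at 627, 412, 391 and 871 TPM against 446, above the control with DNMT1 and EGFP and below it with DNMT3A and DNMT3B. Among 13 genes of tRNA charging none was 2-fold higher, and the medians were -0.08, -0.10, -0.16 and 0.43. Of the 13 genes, 6, 4, 4 and 10 were above pUC19, against 37.3%, 48.1%, 48.5% and 49.6% of all genes tested. SARS was above it in all 4 fusions, at 416, 396, 368 and 510 TPM against 271. IARS and YARS, the isoleucyl- and tyrosyl-tRNA synthetases, were lower in all 4 fusions. IARS was at 138, 109, 95.6 and 117 TPM against 354, and YARS at 164, 169.9, 169.3 and 171 against 476.

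Of 16 targets in signalling, redox and death, 3, 4, 4 and 4 were at least 2-fold higher. GDF15, a secreted stress cytokine, was at 3.84, 1.80, 1.16 and 5.37 TPM against 0.257 in pUC19, where it had 5 reads. The folds were 14.9 (6.05 to 47.7) with DNMT1, 7.01 (2.67 to 23.2) with DNMT3A, 4.53 (1.59 to 15.8) with DNMT3B and 20.9 (8.56 to 66.3) with EGFP. INHBE, a subunit of activin E, was at 23.8, 14.1, 20.1 and 55.7 TPM against 6.62, and FGF21, a stress hormone, at 3.09, 2.51, 3.12 and 6.22 against 0.800. For these 3 genes EGFP was the highest library, and DNMT3A or DNMT3B the lowest of the fusions. FGF21 had 36, 30, 33 and 66 reads in the fusions and 12 in pUC19. Its intervals with DNMT1, DNMT3A and DNMT3B overlapped, so its order among them is within counting error. Other genes of the list differed from that order. STC2, a secreted glycoprotein, was at 88.2, 177, 169.7 and 153 TPM against 79.2, highest with DNMT3A and DNMT3B. NDRG1, a stress-responsive gene, was below pUC19 in all 4 fusions, at 32.2, 36.9, 40.7 and 29.9 TPM against 71.5.

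**Figure D2:**
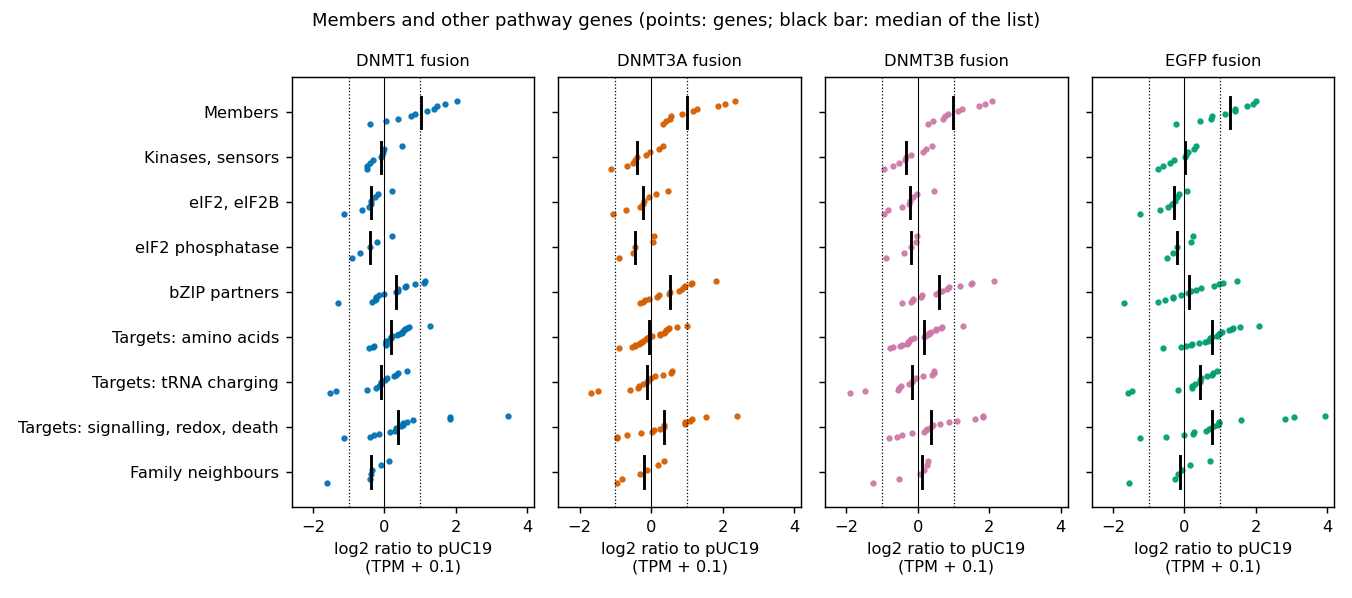
Log2 ratio to pUC19 of the members and of the other pathway genes of at least 1 TPM in either library, by list and fusion, with each list's median as a black bar. The members' medians lie between 0.99 and 1.26, and those of kinases, eIF2 subunits and phosphatase at or below 0.02, while amino acid targets are highest with EGFP at 0.76.

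For genes outside the members, edgeR's quasi-likelihood test was used with Benjamini-Hochberg adjustment over all genes, in which the fusions stand in for replicates although they are different constructs. In the fit of the 4 fusions against pUC19, 0.0937% of 16001 genes were called higher and 0.644% lower, and 2 of the 93 pathway genes were called, both lower. YARS had a log2 fold change of -1.45 ± 0.16 (SE, adjusted p = 0.0123) and IARS one of -1.56 ± 0.22 (SE, adjusted p = 0.0255), and for IARS the adjusted p was 0.052 without the EGFP library. No pathway gene was called higher, while 26 of the 93 had an unadjusted p under 0.05 in either direction, as had 2879 of the 16001 genes. DESeq2's Wald test called 7 higher and 6 lower, and 977 of 14744 genes in all. Nearest to the threshold on the higher side among the genes named above was JDP2, at 1.37 ± 0.25 (SE, adjusted p = 0.0525). The pUC19 arm, with 1 library, added nothing to the estimate of spread and was assumed to vary like the fusions, so these p-values compare that library with the fusions and have no replicate check of the control.

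Between the fusions the same test called 21 of the 93 pathway genes, 3 higher and 18 lower with DNMT3A and DNMT3B than with DNMT1 and EGFP. Over all 15332 genes 6.9% were called higher and 4.15% lower. The lists were chosen with earlier results of these data known, so counts and adjusted p-values within them are a description. Of the amino acid targets 9 of 21 were lower and none was higher. They were PCK2 at -1.17 ± 0.17, ALDH1L2 at -1.04 ± 0.18, ASNS at -0.94 ± 0.14, CTH at -0.86 ± 0.24, SLC7A11 at -0.83 ± 0.21, PSAT1 at -0.71 ± 0.16, CBS at -0.65 ± 0.13, SHMT2 at -0.65 ± 0.11 and PHGDH at -0.62 ± 0.12 (log2 fold change ± SE), with edgeR adjusted p-values between 0.00643 and 0.0483. PHGDH and PSAT1 make serine, CBS and CTH carry out transsulfuration, and SLC7A11 imports cystine. Among the tRNA synthetases WARS, EPRS and AARS were lower at -0.76, -0.70 and -0.66, and among the signalling targets GDF15 at -1.66 ± 0.37 (SE) and INHBE at -1.25 ± 0.31 (SE). For INHBE the adjusted p was 0.0347 with edgeR and 0.125 with DESeq2. With no filter on low counts the edgeR calls of INHBE, CTH, SLC7A11 and ATF5 were lost, at adjusted p-values between 0.056 and 0.0899. Lower too were ATF5, a bZIP factor under the same kind of translational control as ATF4, EIF2S3, the gamma subunit of eIF2, GCN1L1, which helps to activate GCN2, and IMPACT, which opposes that activation. The bZIP genes FOSL1, CEBPA and ATF1 were higher, at 1.27, 0.90 and 0.87. Leaving out 1 library moved the calls over all genes as well as those of the pathway. Without DNMT3A the edgeR test called 0 pathway genes, with 23 at an unadjusted p under 0.05, and 18 of 15755 genes in all. Without DNMT3B it called 0 pathway genes, with 32 at an unadjusted p under 0.05, and 53 of 15755 genes in all. Without DNMT1 it called 54, and 3536 of 15720 genes in all, and without EGFP 33, and 3850 of 15603 in all. Log2 fold changes of some genes moved little where the call was lost: without DNMT3A and without DNMT3B, ASNS was at -0.99 and -0.90 and AARS at -0.67 and -0.65, while SLC7A11 was at -0.54 and -1.18.

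**Figure D3:**
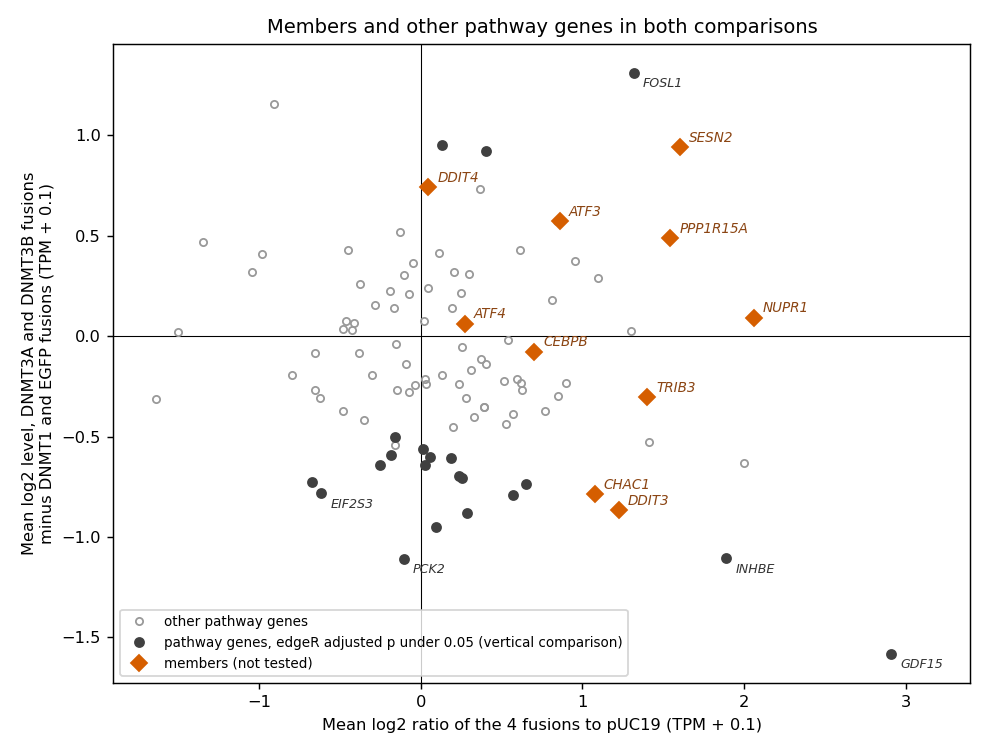
Mean log2 ratio of the 4 fusions to pUC19 (horizontal) against the mean log2 level with DNMT3A and DNMT3B minus that with DNMT1 and EGFP (vertical), for the 10 members and 93 other pathway genes. DDIT3 and CHAC1 lie at -0.87 and -0.79 on the vertical axis, and SESN2 and DDIT4 at 0.94 and 0.74. The members were not tested.

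For the 3 members with the widest range, the genes with the most similar pattern were taken from 11064 expressed genes, by the root mean square difference of centred log2 levels over the 5 libraries. STAC3, NOL3 and MAP1A were nearest to NUPR1, at differences of 0.140, 0.174 and 0.208. SESN2 was followed most closely by TNFRSF10D, CCDC102A and ZBTB7B, at 0.0949, 0.0960 and 0.111. TNFRSF10D was at 10.7 TPM with DNMT1, 20.9 with DNMT3A, 21.5 with DNMT3B, 14.9 with EGFP and 5.22 in pUC19, with DNMT3A and DNMT3B above EGFP, DNMT1 and pUC19, as for SESN2. The genes nearest to DDIT3 were SDCBP2-AS1, TP53INP1 and UNC5B, at 0.162, 0.169 and 0.193, and UNC5B was at 91.6, 77.8, 82.4 and 134 TPM against 41.0 in pUC19. SDCBP2-AS1 is annotated as antisense, and its reads may not be told apart from those of its sense neighbour where strand was not kept. Over 5 points and so many genes, close patterns are frequent, and the likeness is a description only.

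Beyond the rule that chose them, the members were GC-rich. Their GC content ranged from 46.7% in ATF3 to 66.2% in CEBPB, against a median of 49.0% over the expressed genes with a value, and 9 of 10 were above that median. Transcript lengths in the deposited tables ran from 938 nt in NUPR1 to 3547 nt in SESN2, against a median of 2911 nt. Removing the trend of each library with GC content and length left the number of members past 2-fold at 5, 5, 5 and 6, and 21 of 40 values past 2-fold, but brought the ratio of ATF4 with DNMT1 from 0.05 to -0.02.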

How the data were processed

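The members and all gene lists were chosen with earlier results of these data known. RNA was sequenced from 1 library for each of the 5 groups, which were taken from the sample titles. The authors removed reads of low quality, with adaptor or of short length, aligned the rest with tmap (version not given in the sources used here) to RefSeq RNAs of hg19 and kept reads that mapped uniquely. The read counts per gene deposited by the authors are whole numbers and were not normalized. TPM, as deposited, is the count over the length of the gene, scaled per library by the authors, and could be recomputed exactly from counts and lengths. The coverage in percent per gene deposited by the authors was not defined and was taken to be the covered share of each transcript. Genes without a row were set to 0.

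Log2 ratios to pUC19 and counts past 2-fold were computed on TPM + 0.1 over genes of at least 1 TPM in either library. Folds printed with a 95% exact conditional (binomial) interval are ratios of TPM without the added 0.1. The measures differ most for genes of low level. Amplified reads carry no molecular identifiers, so intervals cover counting error only. For genes outside the members, edgeR 4.0.16 (R 4.3.3; TMM, filterByExpr, quasi-likelihood) was used at an adjusted p under 0.05. DESeq2 1.42.0, median-ratio size factors, no filter, each fusion left out, pseudocount 1, minimum of 5 TPM, thinning and a loess trend (span 0.3) on GC content and length were alternatives. The fits were also run on simulated counts of smaller spread than these data. That run does not check the calls made between different constructs. Annotation was GENCODE v44 on GRCh37.

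All members were named. From each list, the genes named were those called, the 3 with the largest and the 1 with the smallest absolute mean log2 ratio of the fusions to pUC19 at 5 TPM or more in pUC19 or in all fusions, of which the text gives a part, and some others as examples chosen after their values were seen. For the 3 members of widest range, the 3 genes of most similar pattern were named.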

Additional observations from a re-analysis of the deposited data

Results flagged for a closer look

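DDIT4 lay on opposite sides of pUC19 in different fusion libraries, with log2 ratios of 0.40 and 0.43 with DNMT3A and DNMT3B and of -0.41 and -0.24 with DNMT1 and EGFP. This difference was not tested.

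Pathway genes whose level with DNMT3A and DNMT3B differed from that with DNMT1 and EGFP under the same guides were picked out because the difference itself passed edgeR's test, over 2 constructs per arm. The lists that held these genes were chosen with earlier results of these data known. Those lower with DNMT3A and DNMT3B, as log2 fold changes, were GDF15 at -1.66, INHBE at -1.25, PCK2 at -1.17, ALDH1L2 at -1.04, ASNS at -0.94, CTH at -0.86, EIF2S3 at -0.84, SLC7A11 at -0.83, IMPACT at -0.79, ATF5 at -0.78, WARS at -0.76, PSAT1 at -0.71, EPRS at -0.70, AARS at -0.66, CBS at -0.65, SHMT2 at -0.65, PHGDH at -0.62 and GCN1L1 at -0.56. The genes higher were FOSL1 at 1.27, CEBPA at 0.90 and ATF1 at 0.87.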

How the results depend on the processing

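With 1 library per group, the values of the members have no replicate spread, and read depth limited NUPR1 most. The count of members past 2-fold was 5, 5, 5 and 6 of 10 with DNMT1, DNMT3A, DNMT3B and EGFP under each alternative, except 6 with DNMT1 under median-ratio size factors. The number of all genes past 2-fold, 1206, 1940, 1880 and 1328 in the same order, became 681, 1259, 1239 and 783 with a pseudocount of 1 TPM, 2346, 3079, 3015 and 2428 with no minimum level, and 615, 1222, 1168 and 720 with a minimum of 5 TPM. Of the 40 ratios of members, 20 left their counting interval when the GC and length trend was removed, 7 with TMM scaling, 8 with median-ratio size factors and 3 without the rows of the methyltransferases.

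For the 4 fusions against pUC19, edgeR called 2 pathway genes, DESeq2 13 and edgeR with no filter 5, and between 1 and 3 when 1 fusion was left out, with 1 without EGFP. In the fit of DNMT3A and DNMT3B with DNMT1 and EGFP as the other arm, edgeR called 21, DESeq2 25 and edgeR with no filter 17. With 1 library left out, the count was between 0 and 54: 0 without DNMT3A, 0 without DNMT3B, 33 without EGFP and 54 without DNMT1, where the arm with a single library is assumed to vary like the other. The cause of these shifts was not tested.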
